A study of Homo sapiens with 6 samples.

Results

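SMAD3, the receptor-activated SMAD that carries TGF-beta signals to the nucleus, was 1.36-fold higher in G1-phase MCM2-mAID HCT116 cells given auxin than in those given DMSO, while ID1, an inhibitor of helix-loop-helix factors and a BMP target, was lower at 0.799-fold. Both belong to a set of 10 genes of TGF-beta and BMP signalling: the receptor TGFBR2, the signal-carrying SMAD2, SMAD3 and SMAD4, the inhibitory SMAD6 and SMAD7, the corepressor SKIL, and the inhibitors of differentiation ID1, ID2 and ID3. The set was taken by gene symbol, as all quantified transcripts that GENCODE release 44 assigns to these genes. This gave 10 of 36415 genes and 84 of 199240 transcripts. For SMAD4, 16 of the 24 transcripts in that release were quantified. SMAD3 and ID1 were singled out with earlier results of these libraries known, so their tests here are no independent evidence.

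HCT116 is an established human colorectal carcinoma line, and in the clone used here both alleles of MCM2 carry a C-terminal mini auxin-inducible degron (mAID). MCM2 is a subunit of the helicase that is loaded onto DNA in G1 phase. The same cells express the plant auxin receptor AtAFB2 from a CMV promoter, so that auxin (3-indoleacetic acid, 500 µM) leads to proteasomal destruction of the tagged protein. In all, 3 libraries came from degron cells given auxin and 3 from the same degron cells given DMSO, the solvent control. All cells were arrested and released with thymidine and sorted from the left side of the G1 peak. No library analysed here came from cells without the degron, so auxin itself and loss of MCM2 cannot be told apart. The degron acts on the protein, and the level of MCM2 mRNA is therefore no check of the labels. The line is 1 clone. The study calls the replicates independent, and the labels do not say whether they were separate cultures, so a p-value here covers the spread among these libraries, whatever its source.

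TGF-beta and BMP ligands bind pairs of type I and type II receptor kinases, which phosphorylate receptor-activated SMADs. SMAD2 and SMAD3 serve the TGF-beta and activin branch and their relatives serve the BMP branch, and both kinds join SMAD4 before they act on DNA. SMAD6 and SMAD7 block the receptors in negative feedback, SKIL represses SMAD-bound genes, and ID genes are classical immediate targets of BMP signalling. HCT116 cells are known to lack a working type II TGF-beta receptor because of mutation of its gene, so transcript levels of TGFBR2 do not report on receptor function here.

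Libraries held 52.5 to 68.4 M estimated counts. Epithelial markers summed to 4350 to 4560 CPM (library-scaled counts, with TMM factors) in auxin and 4690 to 5170 CPM in DMSO, with KRT8 the most abundant at 2390 CPM. Of these markers, 2 of 9 tested were called higher and 1 lower, beside 6.78% of all tested genes called in either direction. Fibroblast markers summed to 36.9 to 45.1 CPM in auxin and 33.6 to 41.1 CPM in DMSO, mostly COL1A1, with LUM and FAP under 0.05 CPM. Leukocyte markers summed to 16.1 to 17.8 and 15.1 to 16.8 CPM, mostly CD68, and endothelial markers to 1.15 to 1.55 and 1.29 to 1.65 CPM, with CD3D, MS4A1, NKG7 and CDH5 under 0.05 CPM. S phase genes summed to 2690 to 2780 CPM in auxin and 2820 to 2870 CPM in DMSO with a lowest adjusted p of 0.140 in edgeR over 12 genes. Mitosis genes summed to 1650 to 2070 CPM in auxin and 1640 to 2050 CPM in DMSO. Of 12 mitosis genes 1 was called higher (adjusted p = 0.0324 in edgeR), beside the same 6.78% of all tested genes. The part of S phase and mitosis genes in the results below was not tested. In bulk libraries such as these, fewer cells expressing a gene and less RNA per cell cannot be told apart.

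Among the 10 genes, 1 was called higher (SMAD3) and 1 lower (ID1), and the other 8 did not pass the test. A gene was called at an adjusted p under 0.1 in the quasi-likelihood test of edgeR over 15765 genes. Across those genes 1069 were called, or 6.78%, of which 681 (4.32%) were higher and 388 (2.46%) lower. The median log2 fold change was -0.02 over the 10 genes and 0.01 over all tested genes. The count of all called genes rested on single libraries: leaving out auxin replicate 2 gave 183, auxin replicate 3 gave 336, DMSO replicate 2 gave 316 and DMSO replicate 3 gave 251. DESeq2 called 1638 genes with 48.5% of them higher, against 63.7% in edgeR, and 656 genes with 48.9% higher were called once a length trend was removed.

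**Figure D1:**
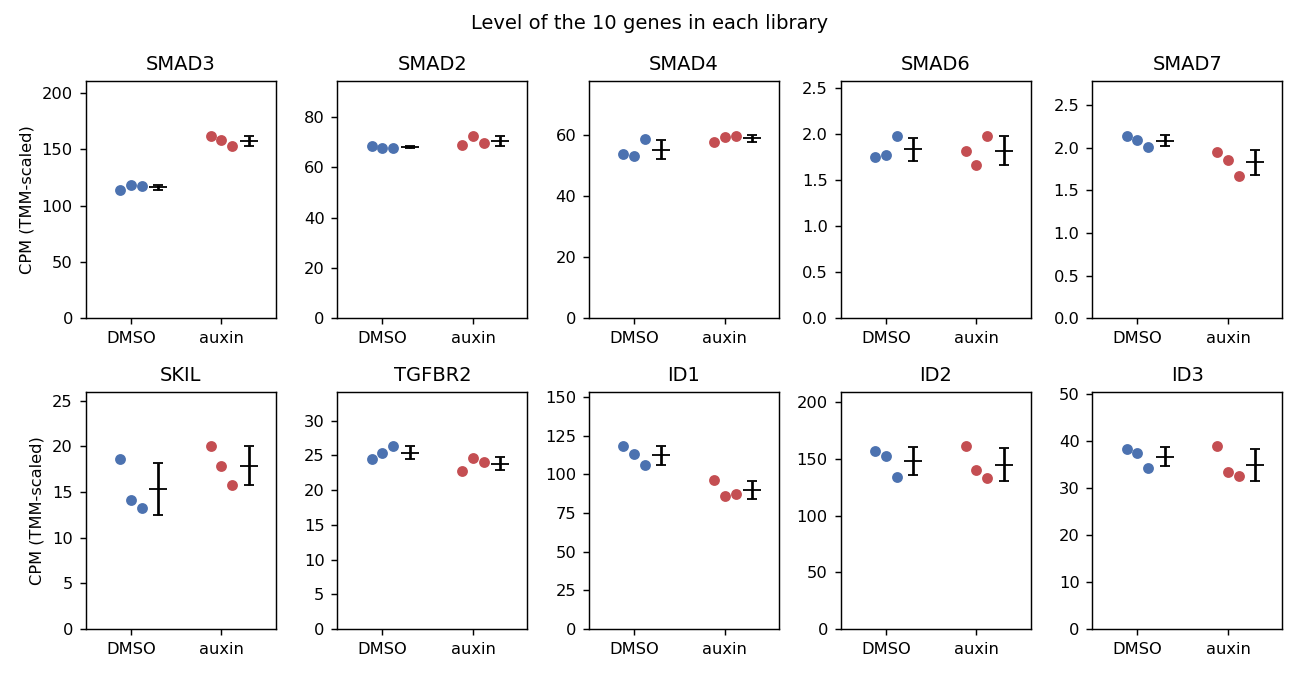
CPM of each of the 10 genes in 3 DMSO libraries (blue) and 3 auxin libraries (red), in 1 panel per gene with the axis from 0; black marks show the mean with the SD. The auxin points of SMAD3 (153 to 162 CPM) lie above all DMSO points (114 to 118 CPM), and those of ID1 (85.9 to 96.2 CPM) lie below all DMSO points (106 to 118 CPM).

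SMAD3 is on chromosome 15 (hg38 chr15:67063763-67195173, + strand, ENSG00000166949.17). In CPM it reached 162, 158 and 153 in auxin replicates 1, 2 and 3 and 114, 118 and 117 in the DMSO replicates. The groups did not overlap, and the lowest auxin library stood well above the highest DMSO library. Over 3 libraries each, the mean with its SD was 158 ± 4.48 CPM under auxin against 116 ± 2.03 CPM under DMSO. On the log2 scale the difference was 0.44 (SE 0.04) at an edgeR adjusted p of 4.56e-04, which ranked SMAD3 at 15 by p among all tested genes. Estimated counts behind these values ran from 5867 to 10232 per library.

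ID1 is on chromosome 20 (chr20:31605283-31606515, + strand, ENSG00000125968.9). Its levels were 96.2, 85.9 and 87.2 CPM in auxin and 118, 113 and 106 CPM in DMSO. Every auxin library was below every DMSO library, by about as much as the DMSO libraries differed among themselves. Mean and SD over 3 libraries were 89.7 ± 5.60 CPM under auxin against 112 ± 6.12 CPM under DMSO, so the log2 difference was -0.32 (SE 0.06) at an edgeR adjusted p of 0.0171. The call was lost without auxin replicate 2, where the log2 fold change was -0.29 with an adjusted p of 0.113 in edgeR.

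The start regions of both genes are shown because estimated SMAD3 RNA was spread over transcripts with several annotated starts. The largest and the most unequal of these starts can be set beside the single start of ID1. Each is the RefSeq window of 250 bases before to 50 bases after a start (GRCh38.p14). The main SMAD3 window (chr15:67065352-67065651, + strand) ends within exon 1 of the transcript SMAD3-201. The internal SMAD3 window (chr15:67137771-67138070, + strand) lies in intron 1 of SMAD3-201, 72419 bases downstream of its start. The ID1 window (chr20:31605039-31605338, + strand) ends within exon 1 of ID1-202. Capitals mark CAGAC or its reverse complement GTCTG, the core bound by SMAD3 and SMAD4, and GGCGCC, a GC-rich SMAD element that is its own reverse complement.
SMAD3 main start: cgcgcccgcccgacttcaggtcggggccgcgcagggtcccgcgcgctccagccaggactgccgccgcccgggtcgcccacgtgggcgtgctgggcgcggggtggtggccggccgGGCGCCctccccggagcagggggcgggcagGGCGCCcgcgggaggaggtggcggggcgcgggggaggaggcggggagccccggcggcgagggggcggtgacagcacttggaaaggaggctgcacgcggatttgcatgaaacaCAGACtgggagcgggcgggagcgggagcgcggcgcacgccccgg
SMAD3 internal start: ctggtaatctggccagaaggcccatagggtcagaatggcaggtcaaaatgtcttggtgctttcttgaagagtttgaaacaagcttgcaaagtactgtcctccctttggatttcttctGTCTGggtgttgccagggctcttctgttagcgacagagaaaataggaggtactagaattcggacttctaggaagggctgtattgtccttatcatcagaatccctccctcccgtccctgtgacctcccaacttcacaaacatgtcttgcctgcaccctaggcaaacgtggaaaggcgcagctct
ID1 start: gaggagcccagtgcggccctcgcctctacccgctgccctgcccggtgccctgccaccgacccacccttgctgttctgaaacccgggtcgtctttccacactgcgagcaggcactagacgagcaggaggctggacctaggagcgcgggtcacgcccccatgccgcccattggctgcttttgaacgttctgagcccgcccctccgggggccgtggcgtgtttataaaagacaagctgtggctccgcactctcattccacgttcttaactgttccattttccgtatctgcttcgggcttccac

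The main SMAD3 window held 1 match of CAGAC and 2 of GGCGCC, with a GC content of 80.3%. The internal SMAD3 window held 1 match of CAGAC, on the reverse strand, and the ID1 window held 0 matches of either motif. No matches overlapped each other. Of 18 windows of the 10 genes, 7 held CAGAC and 5 held GGCGCC, and of all 35116 windows in that RefSeq set, 45.3% held CAGAC and 19.2% held GGCGCC. A match describes these letters only and does not mark a binding site.

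SMAD3 RNA was summed over transcripts that start within 500 bases of each RefSeq start, in TPM, a level that is corrected for transcript length and library total. At the main start it was 27.7, 26.3 and 28.0 TPM in auxin and 18.6, 18.6 and 18.3 TPM in DMSO, a ratio of means of 1.48. At the internal start shown above it was 2.57, 2.32 and 3.00 TPM in auxin and 1.02, 1.25 and 1.08 TPM in DMSO, a ratio of 2.36. In both places the groups did not overlap. The values are estimates per annotated transcript, grouped by annotated start, so the use of a start was not itself measured. The internal start rests mainly on SMAD3-202, with 66 to 201 estimated counts per library and an edgeR adjusted p of 0.272, and was chosen after its values were seen. At 3 further starts the ratios of the means were 1.47, 1.75 and 1.90, with overlapping groups at the last of them, where all levels were 0.250 to 1.04 TPM. Transcripts of the main start carried most of the estimated SMAD3 RNA, and these ratios were not tested against each other.

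The transcripts with most of the RNA of SMAD3 and ID1 had differences of the same sign as their genes, but no transcript of either was called by edgeR. Of 11 tested SMAD3 transcripts 9 had a log2 fold change above 0 and 2 below. SMAD3-201, the full-length coding transcript of 6464 bases with 63.3% of the gene's TPM, was at 27.7, 26.1 and 27.4 TPM in auxin and 18.6, 18.6 and 18.3 TPM in DMSO. The log2 difference was 0.49 (SE 0.04) at an edgeR adjusted p of 0.107 over 78049 transcripts, and limma-voom gave an adjusted p of 0.0968. SMAD3-202, the transcript of the internal start, was chosen after its values were seen. It had 2.49, 2.32 and 3.00 TPM in auxin and 1.02, 1.16 and 1.08 TPM in DMSO, with a log2 fold change of 1.20 (SE 0.17) and 66 to 201 estimated counts per library. SMAD3-216, chosen likewise and with 9.10% of the gene's TPM, was 4.15, 3.88 and 1.69 TPM in auxin and 3.18, 2.87 and 3.86 TPM in DMSO, so its groups overlapped.

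ID1 has 2 annotated transcripts, which start within a few bases of each other. ID1-202, with 88.4% of the gene's TPM, was at 134, 112 and 115 TPM in auxin and 156, 139 and 136 TPM in DMSO, a log2 difference of -0.31 (SE 0.08) at an edgeR adjusted p of 0.614. ID1-201 was at 14.2, 15.9 and 16.6 TPM in auxin and 19.1, 21.0 and 17.6 TPM in DMSO, a log2 difference of -0.36 (SE 0.10) at an edgeR adjusted p of 0.640. Both transcripts were lower in every auxin library than in any DMSO library. Of 49 tested transcripts of the 10 genes 0 were called by edgeR, and limma-voom called 1 (SMAD3-201). Among all 78049 transcripts edgeR called 2 (0.00256%).

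**Figure D2:**
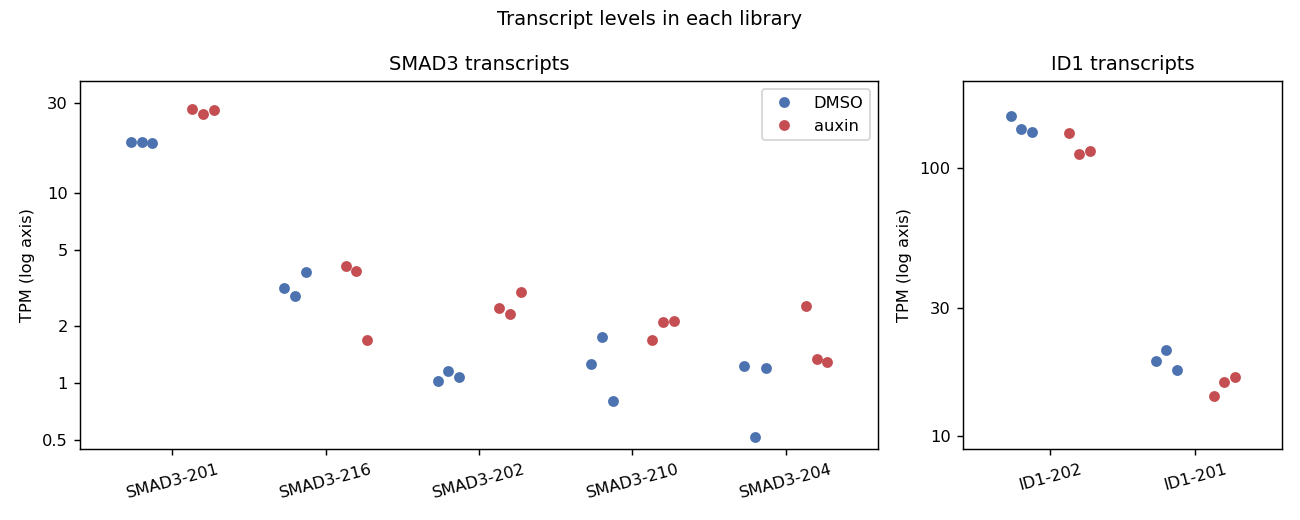
TPM on a log axis for the 5 most abundant SMAD3 transcripts (left) and the 2 ID1 transcripts (right), with 1 point per library, DMSO blue and auxin red. SMAD3-201 and SMAD3-202 were higher in all 3 auxin libraries, SMAD3-216 overlapped between the groups, and both ID1 transcripts were lower in all 3 auxin libraries.

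TGFBR2, the type II receptor that binds TGF-beta (chr3:30606601-30694142, + strand), was not called. It stood at 22.8, 24.6 and 24.1 CPM in auxin and 24.5, 25.4 and 26.3 CPM in DMSO. The groups overlapped, and the log2 fold change was -0.09 (SE 0.06, adjusted p = 0.367 in edgeR). TGFBR2-201 made up 73.2% of its TPM.

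SMAD2, which carries the same TGF-beta signals as SMAD3, differed little (chr18:47808957-47931146, - strand). Levels were 69.0, 72.6 and 69.6 CPM in auxin and 68.7, 67.8 and 67.8 CPM in DMSO. The auxin libraries lay above the DMSO libraries by a narrow margin, and the log2 fold change was 0.05 (SE 0.04, adjusted p = 0.548 in edgeR). SMAD2-205 and SMAD2-207 made up 42.9% and 38.5% of its TPM, at log2 fold changes of 0.02 (SE 0.06) and 0.12 (SE 0.09).

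SMAD4, the common partner of all receptor-activated SMADs (chr18:51028528-51085045, + strand), had 57.6, 59.3 and 59.7 CPM in auxin and 53.7, 53.2 and 58.7 CPM in DMSO. DMSO replicate 3 lay within the auxin range, so the groups overlapped, and the log2 fold change was 0.09 (SE 0.05, adjusted p = 0.314 in edgeR). Its TPM was spread over 4 transcripts with 11.6% to 23.8% each, where 16 of its 24 transcripts in GENCODE release 44 were quantified. The 2 most abundant, SMAD4-216 and SMAD4-213, are annotated as targets of nonsense-mediated decay. An overlapping gene on the same strand, ENSG00000267699, held a mean of 14.7 estimated counts, few beside the 2650 to 3851 of SMAD4.

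SKIL, which encodes the SMAD corepressor SnoN (chr3:170357342-170396835, + strand), varied widely between replicates. It had 20.0, 17.9 and 15.8 CPM in auxin and 18.6, 14.1 and 13.3 CPM in DMSO. Replicate 1 was the highest library in each group, and DMSO replicate 1 exceeded 2 of the auxin libraries. The log2 fold change was 0.22 (SE 0.14, adjusted p = 0.399 in edgeR), and it was 0.37 (adjusted p = 0.0555 in edgeR) without DMSO replicate 1. SKIL-201 carried 52.5% of its TPM, and SKIL-203, with 15.7%, was at 1.10, 0.720 and 1.17 TPM in auxin and 0.591, 0.490 and 0.309 TPM in DMSO (adjusted p = 0.666 in edgeR).

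The inhibitory SMADs were near the lower end of what these libraries measured. SMAD6, which mainly restrains BMP signalling (chr15:66702236-66782849, + strand), had 1.82, 1.66 and 1.98 CPM in auxin and 1.75, 1.77 and 1.98 CPM in DMSO. Its groups coincided, with a log2 difference of -0.01 (SE 0.13, adjusted p = 0.973 in edgeR) from 88 to 124 estimated counts per library. SMAD7, which restrains both branches (chr18:48919853-48950965, - strand), had 1.95, 1.86 and 1.67 CPM in auxin and 2.14, 2.09 and 2.01 CPM in DMSO. Its groups did not overlap, but the log2 fold change of -0.19 (SE 0.12) gave an adjusted p of 0.420 in edgeR. With effective lengths as offsets the SMAD7 value was 0.02, so its direction depended on the scaling.

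The other ID genes were not called. ID2 (chr2:8678845-8684461, + strand), which like ID1 binds E proteins and keeps them from DNA, had 161, 140 and 133 CPM in auxin and 157, 153 and 134 CPM in DMSO. ID3 (chr1:23557926-23559501, - strand), with the same activity, had 38.8, 33.4 and 32.6 CPM in auxin and 38.2, 37.4 and 34.3 CPM in DMSO. Auxin replicate 1 was the highest library of all 6 for both genes, and the groups overlapped. The log2 fold changes were -0.04 (SE 0.08, adjusted p = 0.848) for ID2 and -0.07 (SE 0.07, adjusted p = 0.629) for ID3, both in edgeR, and that of ID2 was 0.01 with the length trend removed. Whether ID1 differed from ID2 and ID3 in its response was not tested.

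Groups that did not overlap in CPM were found for 4 of the 10 genes, namely SMAD3, SMAD2, SMAD7 and ID1, where 26.7% of all tested genes had such groups. By sign, 4 log2 fold changes were above 0 and 6 below.

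**Figure D3:**
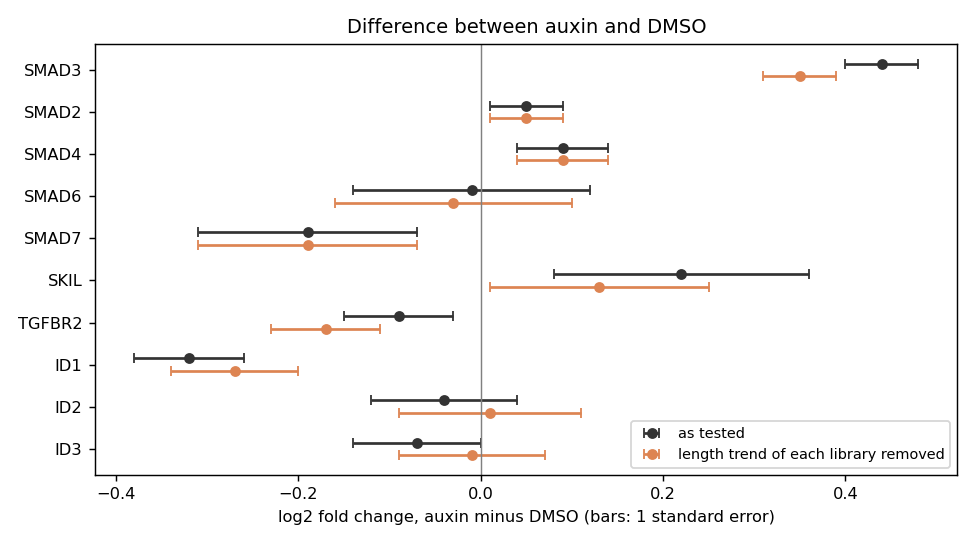
Log2 fold change (auxin minus DMSO) of the 10 genes with 1 standard error, as tested (black) and after the length trend of each library was removed (orange). SMAD3 stays right of 0 at 0.44 and 0.35, ID1 stays left of 0 at -0.32 and -0.27, and the other 8 genes were not called in either.

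The order of the 10 genes by level per length was ID2, ID1, ID3, SMAD2, SMAD4, SMAD3, TGFBR2, SKIL, SMAD7 and SMAD6 in DMSO, from 195 TPM for ID2 to 1.16 TPM for SMAD6. Only SMAD7 and SMAD6 were neighbours with overlapping libraries in DMSO. In auxin SMAD3 (41.6 to 44.4 TPM) reached the level of SMAD4 (39.4 to 45.3 TPM), from 28.4 to 29.6 TPM against 35.9 to 39.3 TPM in DMSO. ID3 and SMAD2 also overlapped in auxin, and SMAD7 and SMAD6 again. TPM of the weakest genes rested on short transcripts, since SMAD6-204, with 51.4% of SMAD6 TPM, had 7 to 16 estimated counts per library.

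Ratios within each library set SMAD3 and ID1 beside their nearest relatives. SMAD3 over SMAD2 in TPM was 0.859, 0.769 and 0.822 in auxin and 0.595, 0.600 and 0.615 in DMSO. ID1 made up 34.0%, 34.2% and 35.9% of the summed TPM of ID1, ID2 and ID3 in auxin, and 39.6%, 37.9% and 40.2% in DMSO. Neither ratio overlapped between the groups. SMAD3 and ID1 were singled out for their differences, so these ratios only describe them. With 3 libraries against 3, an exact permutation test cannot give a 2-sided p below 0.1, and none was run.

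Transcript length moved with the differences across all genes. The Spearman correlation of log2 fold change with effective length was 0.298 across 15765 genes, which are not independent replicates. Genes in the shortest quintile, where ID1, ID2 and ID3 lie, had a median log2 fold change of -0.07, and those in the longest, which holds SMAD3, SKIL and TGFBR2, had 0.09. With the length trend of each library removed, SMAD3 was at 0.35 (SE 0.04, adjusted p = 0.00250 in edgeR) and ID1 at -0.27 (SE 0.07, adjusted p = 0.0782 in edgeR). With GC content removed as well, SMAD3 was at 0.35 (adjusted p = 0.00243 in edgeR) and ID1 at -0.28 (adjusted p = 0.115 in edgeR), which ended the call of ID1.

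Auxin replicate 3 and DMSO replicate 1 had nearly the same length trend, with correlations of gene deviations with length of 0.058 and 0.041. Between these libraries alone SMAD3 was at 153 and 114 CPM, a ratio of 1.34, and ID1 at 87.2 and 118 CPM, a ratio of 0.738. ID2, at 133 and 157 CPM, ID3, at 32.6 and 38.2 CPM, and SKIL, at 15.8 and 18.6 CPM, had ratios of 0.843, 0.853 and 0.850. The pair was chosen for its length trends after the data were seen, and 1 library per group allows no test, so nothing is drawn from it. The part of length in the differences of SMAD3 and ID1 was not tested beyond the removal of the trend.

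**Figure D4:**
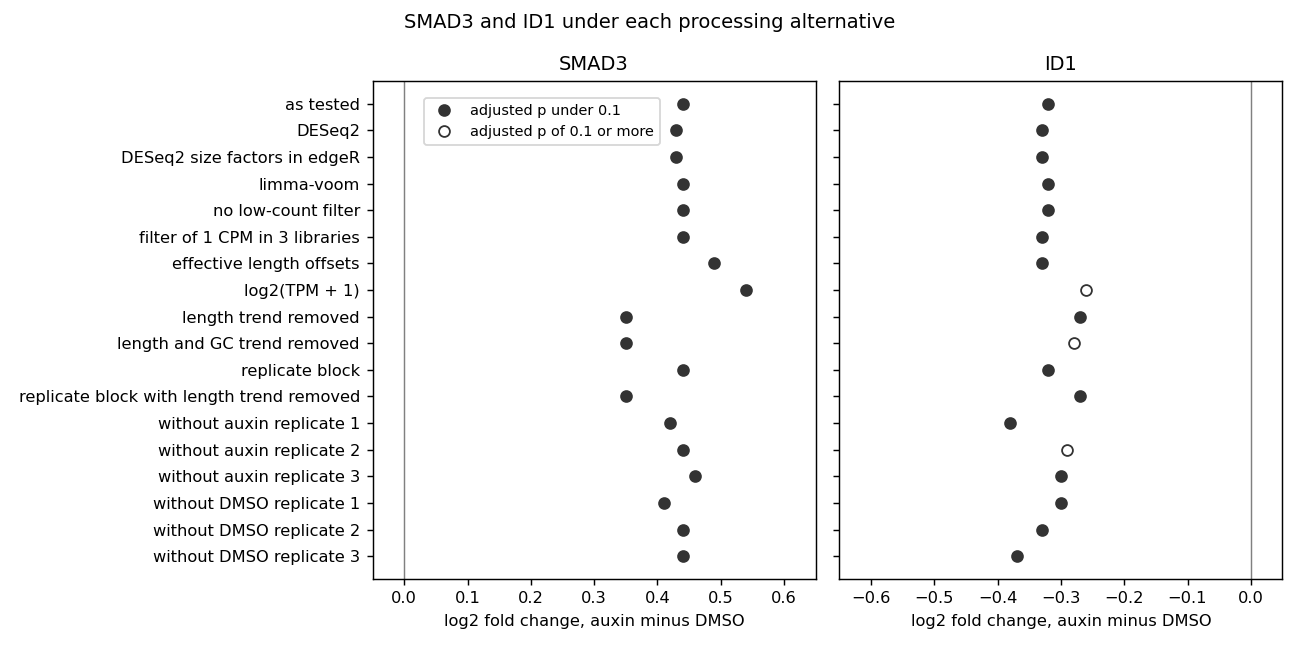
Log2 fold change (auxin minus DMSO) of SMAD3 (left) and ID1 (right) under each of 18 settings, filled where the adjusted p was under 0.1. SMAD3 was called in 18 of 18 at 0.35 to 0.54, and ID1 in 15 of 18 at -0.38 to -0.26.

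SMAD3 remained called in all 18 settings, with log2 fold changes of 0.35 to 0.54 and adjusted p of at most 0.00633. ID1 was called in 15 of 18, at -0.38 to -0.26, and its adjusted p reached 0.115 at most. The values of each setting are drawn in the plot of SMAD3 and ID1 by processing alternative.

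Around the 10 genes, the called genes among the other TGF-beta and BMP pathway genes went in both directions. Of 126 listed genes 111 were tested, 9 were called higher and 5 lower, or 12.6% against 6.78% of all tested genes, with a median log2 fold change of 0.05. With the length trend removed 5 were called higher and 2 lower and the median was 0.00. Among all 15765 tested genes 321 were then called higher and 335 lower, with a median of -0.01. The count moved with single libraries, and so did that of all called genes given above. It became 5 when auxin replicate 2 was left out, 7 for auxin replicate 3, 3 for DMSO replicate 2 and 5 for DMSO replicate 3.

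Upstream of the SMADs, 2 of 14 ligands were lower, or 14.3% against 6.78% of all tested genes called in either direction. BMP4, a BMP ligand of epithelial and mesodermal patterning, fell by 0.14 on the log2 scale (SE 0.04, adjusted p = 0.0859 in edgeR). AMH, the anti-Müllerian hormone, fell by 0.35 (SE 0.07, adjusted p = 0.0401 in edgeR). BMP4 had 129 to 136 CPM in auxin and 143 to 147 CPM in DMSO, and it was not called with the length trend removed (adjusted p = 0.131 in edgeR). Of 8 antagonists 1 was higher (12.5%), namely SOSTDC1, a secreted BMP and WNT antagonist. It went from 2 to 4 estimated counts in DMSO to 11 to 22 in auxin, a log2 difference of 2.37 (SE 0.48) at an edgeR adjusted p of 0.0324. With so few reads the SOSTDC1 value is uncertain. Of 11 genes of ligand storage and activation 0 were called by edgeR. An unadjusted edgeR p under 0.05 was found for 3 of them, and for 3324 of all 15765 tested genes.

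Receptors other than TGFBR2 had a median log2 fold change of 0.17 over 16 genes, the highest of the 10 lists by role. TGFBR1, the type I receptor that pairs with TGFBR2, had 30.5 to 35.5 CPM in auxin and 25.8 to 29.7 CPM in DMSO, a log2 difference of 0.24 (SE 0.07) at an edgeR adjusted p of 0.0957. ACVR2B, a type II receptor for activins, was at 0.23 (SE 0.07, adjusted p = 0.0997 in edgeR). Both genes have long transcripts (effective lengths of 5089 bases for TGFBR1 and 11513 bases for ACVR2B), and with the length trend removed the median of the list was 0.08 and neither was called. ACVR2B was then at 0.04 (adjusted p = 0.824 in edgeR) and TGFBR1 at 0.14 (adjusted p = 0.225 in edgeR).

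Among partners and regulators of the SMADs, 2 of 15 cofactors and corepressors (13.3%) and 2 of 16 genes of turnover and dephosphorylation (12.5%) were higher. Across all tested genes 6.78% were called in either direction. RUNX1, a transcription factor that binds SMADs, had 33.5 to 37.4 CPM in auxin and 26.6 to 29.4 CPM in DMSO, a log2 difference of 0.33 (SE 0.06) at an edgeR adjusted p of 0.0225. With the length trend removed RUNX1 was at 0.24 and no longer called (adjusted p = 0.121 in edgeR). SP1, a general activator that works with SMAD3, was at 0.23 (SE 0.04, adjusted p = 0.0213) and at 0.09 (adjusted p = 0.239) with the length trend removed, both in edgeR. NEDD4L, a ubiquitin ligase for SMAD2 and SMAD3, had 76.1 to 88.5 CPM in auxin and 60.1 to 66.9 CPM in DMSO, a log2 difference of 0.35 (SE 0.06) at an edgeR adjusted p of 0.0224. PPP1R15A, a phosphatase subunit that SMAD7 can bring to the type I receptor, was at 0.16 (SE 0.04, adjusted p = 0.0736 in edgeR). SMAD1, SMAD5 and SMAD9, the SMADs of the BMP branch, gave 0 calls of 3 in edgeR. For 1 of them the unadjusted edgeR p was under 0.05, as for 3324 of all 15765 tested genes.

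Target genes were split. Of 19 TGF-beta targets other than the 10 genes 2 were higher and 2 lower, or 21.1% against 6.78% of all tested genes. Their median log2 fold change was 0.02. TSC22D1, a leucine zipper protein induced by TGF-beta, had 108 to 115 CPM in auxin and 78.9 to 88.4 CPM in DMSO, a log2 difference of 0.39 (SE 0.05) at an edgeR adjusted p of 0.00413. SNAI2, a repressor active in epithelial-mesenchymal transition, was at 1.05 (SE 0.23, adjusted p = 0.0442 in edgeR) from 28 to 29 estimated counts in DMSO and 49 to 84 in auxin. TAGLN, an actin-binding protein, fell by 0.27 on the log2 scale (SE 0.08, adjusted p = 0.0865 in edgeR), and with the length trend removed it was not called (adjusted p = 0.133). It overlaps PCSK7 on the opposite strand, with a mean of 2536 estimated counts, while the strand setting of the read assignment was not stated.

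Of 12 BMP targets other than the 10 genes 1 was called, or 8.33%, close to the 6.78% of all tested genes. MSX1, a homeobox gene downstream of BMP4, had 257, 247 and 243 CPM in auxin and 312, 299 and 307 CPM in DMSO. The groups did not overlap, and MSX1 fell by 0.30 on the log2 scale (SE 0.04, adjusted p = 0.00416 in edgeR), or by 0.29 with the length trend removed. MSX2, named here although not called, was higher by 0.30 (SE 0.09, adjusted p = 0.101 in edgeR), also without overlap of the groups. Log2 fold changes of the 12 genes ran from -0.30 to 0.30 with a median of -0.04. Of ID4 and the E proteins that ID proteins bind, 0 of 3 tested were called by edgeR. For 1 of them the unadjusted edgeR p was under 0.05, beside 3324 of all 15765 tested genes.

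**Figure D5:**
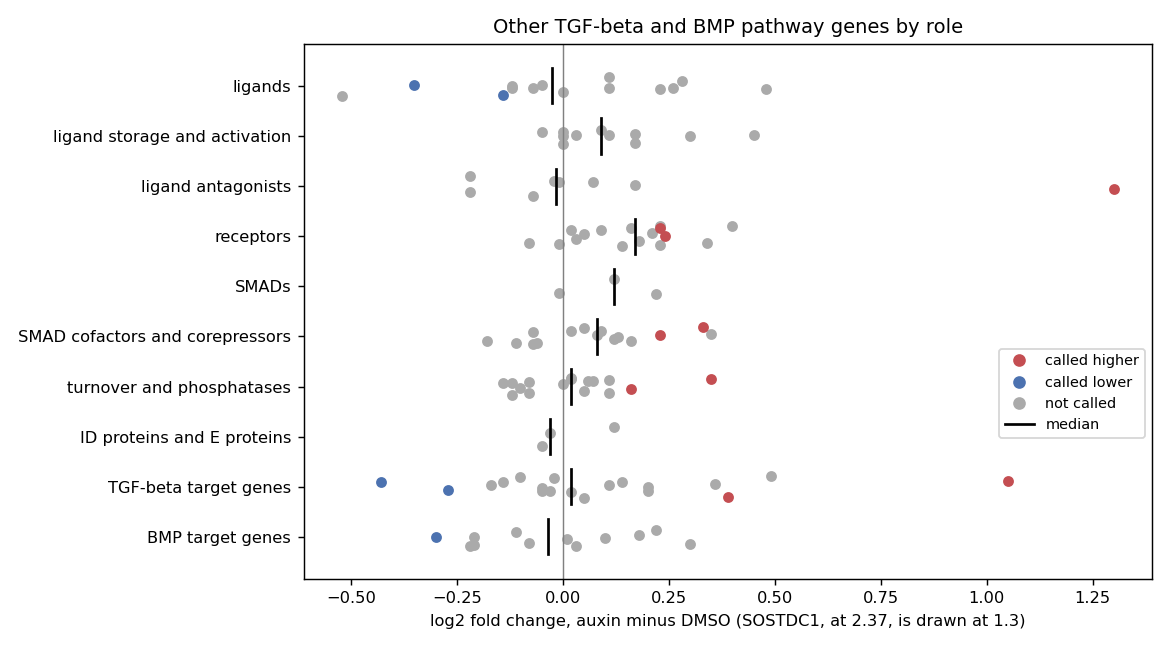
Log2 fold change (auxin minus DMSO) of 111 other pathway genes by role, called higher (red), called lower (blue) or not called (grey), with the median of each role as a black line; a gene with several roles is drawn in each, and SOSTDC1 at 2.37 is drawn at the right edge. Calls lie on both sides of 0, and receptors have a median of 0.17.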

How the data were processed

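Poly(A)-selected, strand-marking libraries were sequenced in paired ends, and reads were assigned by kallisto to hg38 transcripts, with differences tested by sleuth per the study's methods. The sources used here do not give the transcript release or the strand setting. Estimated counts per transcript, as the authors deposited them, carry no normalisation and can be fractional, and 45.6% lay within 1e-06 of a whole number. Transcripts were matched to GENCODE release 44 (178869 of 199240, 89.8%), which held 96.2% to 96.3% of the estimated counts of each library. Estimated counts were summed per gene and rounded. Effective lengths came from the deposited tables, and TPM was computed from them.

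Groups came from the sample labels. For genes and transcripts alike, edgeR 4.0.16 under R 4.3.3 gave the main quasi-likelihood test (robust dispersion, TMM scaling, low-count filter with a minimum count of 10 and total of 15), with treatment as the only term and Benjamini-Hochberg adjustment over all tested features. The threshold of 0.1 is that of the study. SE is the absolute log2 fold change divided by the square root of the F statistic. Scripts were tested on simulated data. Alternatives were DESeq2 1.42.0, its size factors in edgeR, limma 3.58.1 (voom), no filter, 1 CPM in 3 libraries, effective lengths as offsets, log2(TPM + 1), a loess trend (span 0.3) on length or on length and GC removed from each library, the replicate number as a block, and leaving out each library.

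The members, gene lists and tests were chosen with earlier results of these data known. All 10 genes were named, from the pathway lists the called genes with the 3 smallest p per list, and from transcripts those with at least 10% of the TPM of their gene or a call. Exceptions are stated where they occur. Some results are not reported here. Protein sequences were not used here.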

Additional observations from a re-analysis of the deposited data

How the results depend on the processing

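Depth limits genes with few reads, among them SMAD6 (88 to 124 estimated counts per library), SMAD7 (104 to 139), SNAI2 (28 to 84) and SOSTDC1 (2 to 22). The count of called genes was 1069, and 1638 in DESeq2, 452 on log2(TPM + 1), 367 with effective length offsets, 656 with the length trend removed and 183 to 1566 when 1 library was left out. Of the 10 genes 2 were called, 1 on log2(TPM + 1), 1 with length and GC trends removed and 1 to 3 without 1 library. ID1 was at -0.26 on log2(TPM + 1) (adjusted p = 0.113) and -0.28 with length and GC trends removed (adjusted p = 0.115), and at -0.38 to -0.29 without 1 library, in edgeR or limma. Of the other pathway genes 14 were called, 6 with effective length offsets, 8 on log2(TPM + 1), 7 with the length trend removed, 8 with length and GC trends removed and 3 to 15 without 1 library. Of transcripts 2 were called, 6 without the filter, 8 in limma-voom (1 of them of these genes), and 0 to 1 without 1 library. The cause was not tested.

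Signs changed only for genes that were not called: SMAD7 at 0.05 on log2(TPM + 1) and 0.02 with effective length offsets, TGFBR2 at 0.00 on log2(TPM + 1), ID2 at 0.03 on log2(TPM + 1), 0.01 with the length trend removed, 0.01 with length and GC trends removed and -0.12 to 0.02 without 1 library (above 0 without auxin replicate 3), and SMAD6 at -0.08 to 0.05 without 1 library (above 0 without auxin replicate 2 and, at 0.04, without DMSO replicate 3). With 1 CPM in 3 libraries SOSTDC1 and SNAI2 were not tested.

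Same-numbered auxin and DMSO libraries correlated at 0.177, 0.051 and 0.067 in their deviations from the group means, which is too little to pair them by number. Each library correlated best with its own number, a hint from the data and not from the design. For auxin replicate 2 this was nearly a tie, at 0.051 with DMSO replicate 2 and 0.05 with DMSO replicate 3. With the replicate block 4867 genes, 4 of the 10 genes (SMAD4 at 0.09 and SKIL at 0.23 besides SMAD3 and ID1), 44 pathway genes and 0 transcripts were called. With the replicate block and the length trend removed the counts were 3815, 5 (TGFBR2 at -0.17 in addition) and 32, and ID2 was at 0.01.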
